A study of Mus musculus with 12 samples.

Results

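The genes described here are 10 that mark or build the somatic, supporting-cell side of the gonad. Their RNA was read in ovaries of Fmr1 knockout and wild-type mouse fetuses. The genes are Foxl2, Wnt4, Rspo1, Fst, Lgr5, Amhr2, Nr5a1, Wt1, Gata4 and Nr0b1. They were picked out by listed Ensembl identifier and chromosome. The rule used no measured value, though the list was drawn up with earlier results of these data known. All 10 were found among the 55416 annotated genes of the input counts, and 9 of them, all but Lgr5, among the 7525 genes of the RNA immunoprecipitation table.

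Whole ovaries of Fmr1 knockout (KO) and wild-type (WT) mouse fetuses at stage E16.5 were homogenized, with 5 pairs pooled in each sample. RNA of the homogenate itself (input) was sequenced from 3 KO and 3 WT samples, and RNA pulled down with ab17722, an antibody to the Fmr1 product FMRP (RIP), from 3 KO and 3 WT samples. The labels give the strain B6.129P2-Fmr1tm1Cgr/J for every sample, WT included. WT input ovaries came from littermates, as the series' design states. The labels do not say whether the KO ovaries were homozygous. Replicates are labelled as biological, and each stands for a pool of animals.

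In the developing ovary, pregranulosa cells surround the germ cells and later become the granulosa cells of follicles. WNT4 and RSPO1 act through beta-catenin to hold these cells on the ovarian path, and FOXL2 is the transcription factor that maintains granulosa identity against the SOX9-driven Sertoli path of the testis. WT1, GATA4 and NR5A1 act earlier, in forming the gonad of both sexes. NR0B1, also called DAX1, is an orphan nuclear receptor that represses NR5A1 activity.

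Promoter sequences were taken from RefSeq (build GRCm38.p6), which gave a window of 250 bases before to 50 bases after the start for 5 of the 10 genes: Foxl2, Wnt4, Rspo1, Amhr2 and Nr0b1. The windows printed are those of Amhr2, the most abundant of the 10 genes per length, Foxl2, which gives the cell type its best-known marker, and Nr0b1, the least abundant. Both strands were searched for the GATA-factor motif AGATAA. The NR5A1 motif AAGGTCA was searched next. The last search was for the forkhead motif TAAACA. Capitals mark a match.
Amhr2 chr15:102445117-102445416, plus strand: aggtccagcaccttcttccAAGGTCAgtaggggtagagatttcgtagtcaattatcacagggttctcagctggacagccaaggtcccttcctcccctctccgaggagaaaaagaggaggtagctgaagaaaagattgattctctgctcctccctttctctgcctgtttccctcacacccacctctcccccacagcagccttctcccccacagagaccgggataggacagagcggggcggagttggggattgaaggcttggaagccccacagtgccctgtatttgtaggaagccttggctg
Foxl2 chr9:98955357-98955656, plus strand: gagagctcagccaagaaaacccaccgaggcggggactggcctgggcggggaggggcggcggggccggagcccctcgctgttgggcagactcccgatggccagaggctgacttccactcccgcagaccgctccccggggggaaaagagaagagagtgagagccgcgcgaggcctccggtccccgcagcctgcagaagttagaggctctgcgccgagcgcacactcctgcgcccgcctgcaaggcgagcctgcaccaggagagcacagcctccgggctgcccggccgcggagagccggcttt
Nr0b1 chrX:86191525-86191824, plus strand: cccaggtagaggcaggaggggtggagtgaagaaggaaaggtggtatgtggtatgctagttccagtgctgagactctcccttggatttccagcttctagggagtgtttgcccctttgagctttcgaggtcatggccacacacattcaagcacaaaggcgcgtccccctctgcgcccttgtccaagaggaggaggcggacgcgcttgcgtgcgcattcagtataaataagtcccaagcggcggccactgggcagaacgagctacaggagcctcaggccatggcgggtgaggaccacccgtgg

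One match was found in the 5 windows, the AAGGTCA of Amhr2, whose first base lies at position -231 from the start. Of all 32851 RefSeq promoter windows of this length, 4.72% held AAGGTCA, 11.2% held AGATAA and 13.4% held TAAACA. A match is a description of letters, not of binding. The windows of the 5 genes were rich in G and C, from 55.3% for Amhr2 to 84.3% for Wnt4, against a median of 52.7% over all windows.

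The targeted gene was read first. Fmr1 had 85.6, 123 and 93.4 CPM (counts scaled to the library's TMM-adjusted total) in KO input, against 204, 213 and 221 CPM in WT input, with no overlap (log2 change -1.08, SE 0.11, adjusted p = 0.00775 by quasi-likelihood in edgeR, Benjamini-Hochberg). The 6 input libraries held 18880238 to 25707718 counted reads. Of 23698 tested genes, 10, or 0.0422%, passed an adjusted p of 0.05 in edgeR, with 0 higher in KO and 10 lower, Fmr1 among them.

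None of the 10 gonadal genes was among those called. Their estimated log2 changes ran from -0.05 to 0.11, with 7 above 0 and 3 below, a median of 0.05, and the smallest adjusted p was 0.975 (edgeR). The median over all tested genes was -0.00, and 5.9% of them had an unadjusted p under 0.05, against 0 of the 10. KO and WT libraries overlapped for each of the 10 genes, whereas 5.22% of tested genes lay wholly higher in KO and 5.69% wholly lower. For the 9 genes other than Nr0b1, the 95% intervals of the KO over WT fold all lay between 0.835 and 1.19. In a whole ovary, fewer cells of a type and less RNA per cell cannot be told apart.

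**Figure D1:**
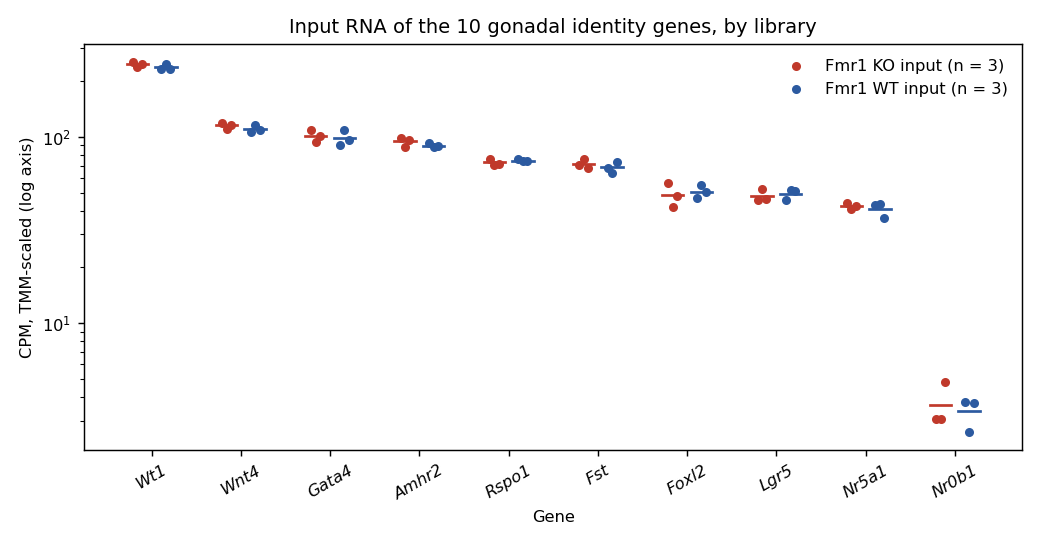
Input level of each of the 10 genes in every library, in TMM-scaled CPM on a log axis, with Fmr1 KO points left and WT points right and a bar at each group's mean of 3 libraries. KO and WT points overlap for every gene, Wt1 lies highest with 231 to 251 CPM, and Nr0b1 lies lowest with 2.62 to 4.82 CPM.

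The ligands came first among the signalling genes. Wnt4 encodes the secreted WNT ligand of the ovarian path (ENSMUSG00000036856, chromosome 4, 137004800 to 137027037, plus strand, 4194 bp of exons). It had 119, 110 and 116 CPM in KO input, against 107, 116 and 109 CPM in WT input. The groups interleaved, and the log2 change was 0.06 (SE 0.068, 95% interval -0.08 to 0.20, adjusted p = 0.977). Rspo1 encodes the secreted R-spondin that raises WNT signalling by keeping its receptors at the cell surface (ENSMUSG00000028871, chromosome 4, 124880223 to 124902892, plus strand, 1938 bp). Its levels were 76.4, 70.6 and 71.6 CPM in KO input and 75.8, 73.8 and 73.9 CPM in WT input. The KO libraries held both the highest and the lowest value, and the log2 change was -0.03 (SE 0.071, 95% interval -0.18 to 0.12, adjusted p = 0.985).

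Lgr5 encodes a receptor for R-spondins (ENSMUSG00000020140, chromosome 10, 115286216 to 115423685, minus strand, 10264 bp). It had 45.7, 52.5 and 46.4 CPM in KO input, against 46.0, 51.7 and 51.0 CPM in WT input. In each genotype 1 library lay apart from the other two, and the log2 change was -0.04 (SE 0.087, 95% interval -0.22 to 0.14, adjusted p = 0.985). Amhr2 encodes the type II receptor for anti-Müllerian hormone (ENSMUSG00000023047, chromosome 15, 102353802 to 102363068, plus strand, 2005 bp). Its levels were 98.6, 88.8 and 96.2 CPM in KO input and 92.2, 87.8 and 88.9 CPM in WT input. KO replicates 1 and 3 were above all WT libraries and KO replicate 2 lay within them (log2 change 0.08, SE 0.070, 95% interval -0.07 to 0.22, adjusted p = 0.975).

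Fst encodes follistatin, a secreted protein that binds and blocks activins and is a known product of WNT4 and FOXL2 activity in the ovary (ENSMUSG00000021765, chromosome 13, 114588826 to 114595487, minus strand, 4589 bp). It had 71.0, 75.9 and 67.7 CPM in KO input, against 68.2, 64.0 and 73.7 CPM in WT input. The ranges overlapped (log2 change 0.06, SE 0.078, 95% interval -0.10 to 0.22, adjusted p = 0.977). An annotated gene on the other strand shared 115 bases, or 2.51%, of the Fst exons, and it had at most 4 reads in any library.

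Among the transcription factors, Foxl2 lies in 1 exon block (ENSMUSG00000050397, chromosome 9, 98837341 to 98840596, plus strand, 3256 bp). It had 56.5, 42.2 and 48.2 CPM in KO input, against 47.0, 54.9 and 50.4 CPM in WT input. The KO libraries were the highest and the lowest of all 6, so that the KO spread contained the WT range (log2 change -0.05, SE 0.099, 95% interval -0.26 to 0.15, adjusted p = 0.982). The counting used no strand, and a gene on the opposite strand shared 12 bases, or 0.37%, of the exon. That gene had 243, 150 and 180 reads in KO input and 285, 238 and 221 in WT input, against 909 to 1258 reads for Foxl2.

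Gata4 encodes a zinc-finger factor needed to form the gonad (ENSMUSG00000021944, chromosome 14, 63436371 to 63509141, minus strand, 3904 bp). Its levels were 109, 93.9 and 101 CPM in KO input and 90.6, 108 and 95.9 CPM in WT input. KO and WT covered nearly the same range, and the log2 change was 0.04 (SE 0.078, 95% interval -0.12 to 0.20, adjusted p = 0.982). Wt1 encodes the zinc-finger factor of the gonadal and kidney lineages (ENSMUSG00000016458, chromosome 2, 104956874 to 105003961, plus strand, 6195 bp). It had the highest CPM of the 10, with 251, 238 and 247 CPM in KO input and 231, 247 and 232 CPM in WT input. Both groups reached nearly the same top value (log2 change 0.05, SE 0.060, 95% interval -0.07 to 0.18, adjusted p = 0.977), and this was the tightest estimate of the 10.

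Nr5a1 encodes steroidogenic factor 1, a nuclear receptor of the gonad and adrenal (ENSMUSG00000026751, chromosome 2, 38582668 to 38604554, minus strand, 4241 bp). It had 44.2, 41.0 and 42.5 CPM in KO input, against 42.9, 43.5 and 36.5 CPM in WT input. WT replicate 3 was the lowest library, and the log2 change was 0.06 (SE 0.092, 95% interval -0.14 to 0.25, adjusted p = 0.981). Nr0b1 (ENSMUSG00000025056, X chromosome, 85235370 to 85239553, plus strand, 1808 bp) was scarce, with 59, 74 and 91 reads in KO input and 96, 60 and 79 in WT input. These were 3.07, 3.07 and 4.82 CPM in KO and 3.79, 2.62 and 3.75 CPM in WT. Its log2 change of 0.11 had the widest error (SE 0.25, 95% interval -0.42 to 0.63, adjusted p = 0.985), which spans KO over WT folds of 0.748 to 1.55.

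**Figure D2:**
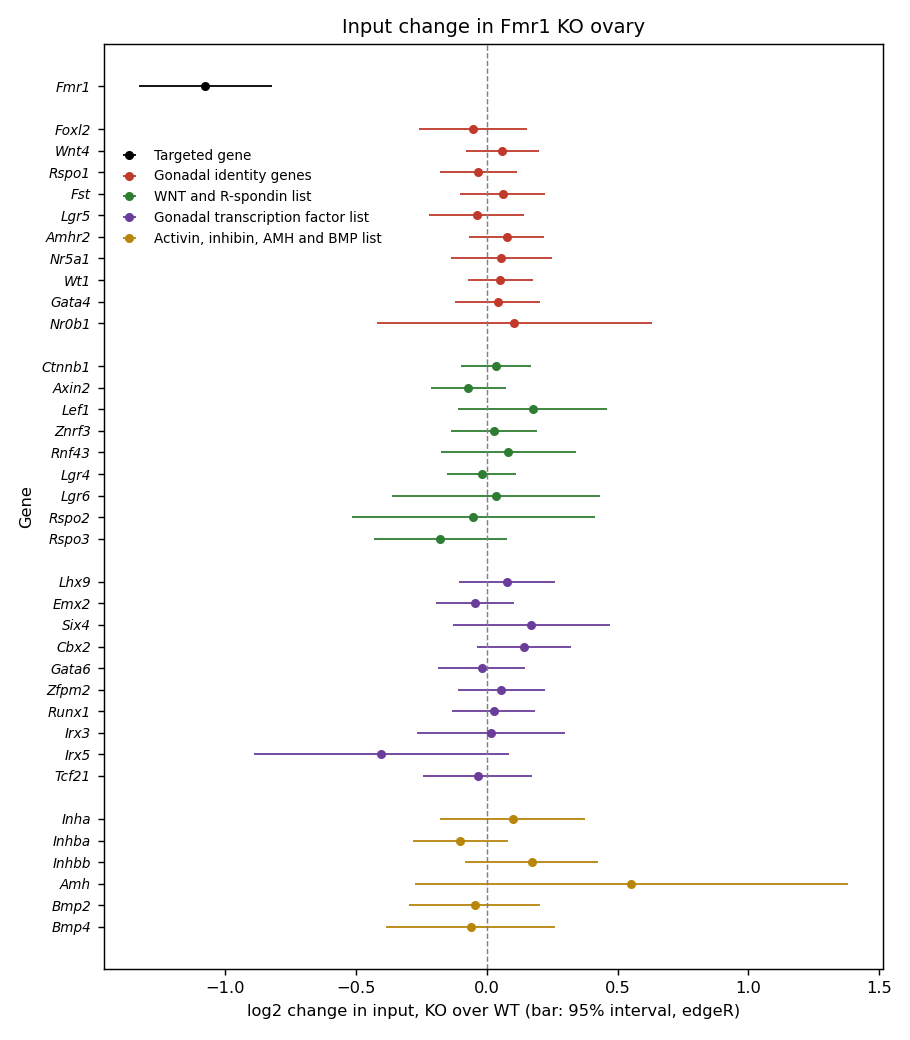
Log2 change in input, KO over WT, with its 95% interval from edgeR, for Fmr1, the 10 gonadal genes and genes of 3 related lists, 1 gene per line. Fmr1 lies at -1.08, and the intervals of all other genes shown cross 0.

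To set the genes beside each other, CPM was divided by exonic length in kilobases (RPKM). Averaged over the 6 input libraries, Amhr2 was highest at 45.9 RPKM, followed by Wt1 at 38.9, Rspo1 at 38.0, Wnt4 at 26.9 and Gata4 at 25.5 RPKM. Foxl2 at 15.3, Fst at 15.3, Nr5a1 at 9.85, Lgr5 at 4.76 and Nr0b1 at 1.95 RPKM came after. The ranges over libraries overlapped between Wt1 and Rspo1, between Wnt4 and Gata4, and between Foxl2 and Fst, so these neighbours were not separated. The other 6 steps in the order held in all 6 libraries, without overlap. Foxl2 lay above Fst in 3 of 6 libraries.

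Among tested genes, these RPKM levels stood at the 96.1 percentile for Amhr2, the 95.2 for Wt1 and the 95.1 for Rspo1. Wnt4 stood at the 92.7 percentile and Gata4 at the 92.2, Foxl2 and Fst at the 85.7, Nr5a1 at the 77.2, Lgr5 at the 60.4 and Nr0b1 at the 42.2. The receptor of anti-Müllerian hormone was thus the most abundant of the 10 per annotated exonic length. That length covers all annotated exons of a gene, 2005 bp for Amhr2 and 6195 bp for Wt1. The length of the expressed transcripts was not measured. By CPM, Wt1 was the highest, at 241 against 92.1 for Amhr2. Lgr5, at 4.76 RPKM, lay below Rspo1, whereas Lgr4, another R-spondin receptor, stood at 26.3 RPKM. By genotype, Amhr2 averaged 47.1 ± 2.54 RPKM in KO and 44.7 ± 1.15 RPKM in WT (SD, n = 3), and Nr0b1 averaged 2.02 ± 0.56 RPKM in KO and 1.87 ± 0.37 RPKM in WT (SD, n = 3). Amhr2 exceeded Nr0b1 24.4-fold on average over libraries.

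**Figure D3:**
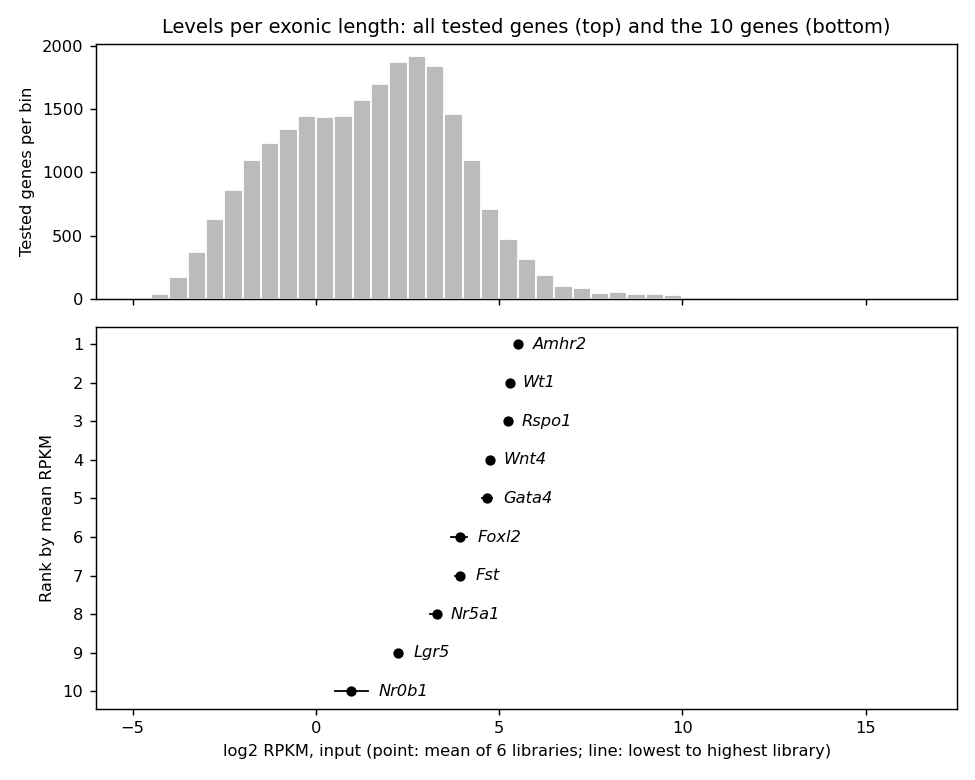
The upper panel counts tested genes by log2 RPKM in input in bins of 0.5, and the lower panel places the 10 genes by rank, with a point at the mean of 6 libraries and a line from the lowest to the highest library. Amhr2 lies at the top with 45.9 RPKM and Nr0b1 at the bottom with 1.95 RPKM.

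The spread between libraries was small for most members. The coefficient of variation over the 6 input libraries ran from 3.09% for Rspo1 to 10.6% for Foxl2 among the 9 more abundant genes, with a median of 6.18%. The 4653 tested genes in the same CPM range had a median of 6.44%. Nr0b1 varied by 22.1%, beside a median of 19.6% for 2593 genes within 1.5-fold of its level.

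Some members moved together between libraries and others did not. Wnt4 and Wt1 followed each other most closely over the 6 libraries (Pearson r = 0.99), and Gata4 followed both (r = 0.93 with Wnt4 and 0.91 with Wt1). Lgr5 and Amhr2 ran in opposite directions (r = -0.89). Over all 45 pairs the median r was 0.067, with 23 pairs above 0. These values describe 6 libraries that share 1 normalization.

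KO replicate 1 held the highest CPM of 7 of the 10 genes, all but Fst, Lgr5 and Nr0b1. The share of all tested genes with their highest CPM in that library was not counted. The median deviation of the members from their own means was 0.07 on the log2 scale in that library, with 0.01 over all tested genes. The other KO libraries deviated by -0.04 (replicate 2) and 0.02 (replicate 3), and the WT libraries by -0.05, 0.04 and -0.02. The tested genes of at least 10 CPM whose profile was most like the members' mean profile, over 6 libraries and among 11282 candidates, were ENSMUSG00000022678 (r = 0.99), ENSMUSG00000015656 (r = 0.99) and ENSMUSG00000116875 (r = 0.99). The files do not pair these identifiers with names. Their r values are the highest of all candidates, over 6 libraries. The largest deviations in the mean profile were those of the scarce Nr0b1. They were 0.47 in KO replicate 3 and -0.39 in WT replicate 2, so that profile does not stand for the 10 genes alike.

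Related genes were read from the same fit. Of 9 genes of the WNT and R-spondin pathway, 0 passed in either direction (edgeR; 0 at an unadjusted p under 0.05), with a median log2 change of 0.03. Ctnnb1, which encodes beta-catenin, averaged 412 CPM in KO and 402 CPM in WT. Lgr4, a further R-spondin receptor, averaged 154 CPM in KO and 156 CPM in WT. The feedback target Axin2 averaged 100.3 ± 5.63 CPM in KO and 105 ± 1.34 CPM in WT (SD, n = 3). Its log2 change was -0.07 (SE 0.068, adjusted p = 0.976, edgeR). Axin2 was the 1 gene of the 9 that lay wholly lower in KO, beside 5.69% of tested genes, and 0 lay wholly higher. Its highest KO and lowest WT library were nearly equal.

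Of 11 other transcription factors of the gonad, 0 passed in either direction (edgeR; 0 at an unadjusted p under 0.05), with a median log2 change of 0.03. Six4 and Cbx2, 2 of the 11, lay wholly higher in KO and 0 lay wholly lower, beside 5.22% and 5.69% of tested genes. Emx2, needed for the early gonadal epithelium, averaged 89.2 CPM in KO and 92.0 CPM in WT, and Zfpm2, the partner of GATA4, averaged 87.4 CPM in KO and 84.1 CPM in WT. Of 6 genes of the activin, inhibin, anti-Müllerian hormone and BMP ligands, 0 passed (0 at an unadjusted p under 0.05; median 0.03). Inhba, a subunit of the activins that follistatin binds, averaged 45.3 CPM in KO and 48.6 CPM in WT, and Bmp2 averaged 20.7 CPM in KO and 21.4 CPM in WT. Kitl, the ligand that granulosa cells present to oocytes, averaged 327 CPM in KO and 348 CPM in WT, and Cdkn1b, the cell cycle inhibitor of resting pregranulosa cells, 180.0 CPM in KO and 181 CPM in WT. Neither of these passed (adjusted p = 0.95 and 0.995; median log2 change -0.05).

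Markers of other cells were read beside these results. Against the label of ovary, supporting-cell markers read as follows. Foxl2 stood at 15.3 RPKM and the Sertoli factor Sox9 at 2.41 RPKM, with Dmrt1 at 0.51 and Amh at 0.644 RPKM, each a mean of 6 libraries. Sry had at most 1 read per library and was not tested. The summed level of these 4 Sertoli markers averaged 12.3 ± 0.805 CPM in KO and 12.6 ± 0.526 CPM in WT (SD, n = 3), and 0 of the 3 tested passed (edgeR).

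The 5 germ cell markers Ddx4, Dazl, Sycp3, Stra8 and Kit all had higher estimates in KO (median log2 change 0.24), beside 11729 of all 23698 tested genes. Of the 5 markers, 0 passed (edgeR, smallest adjusted p = 0.698, with 2 at an unadjusted p under 0.05). Sycp3, of the synaptonemal complex, averaged 56.7 CPM in KO and 48.0 CPM in WT, and Dazl, a germ cell RNA-binding protein, 86.7 CPM in KO and 74.6 CPM in WT. The sum of the 5 markers was 229, 265 and 229 CPM in KO input, against 175, 225 and 217 CPM in WT input. WT replicate 1 thus lay apart from the other WT libraries.

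Of 6 blood and immune markers, 0 passed (edgeR, smallest adjusted p = 0.779, with 1 at an unadjusted p under 0.05, Hba-a1). The 2 erythroid ones, Hba-a1 and Alas2, lay wholly lower in KO, as did 5.69% of all tested genes. Hba-a1, an alpha globin, had 4155, 3221 and 3198 CPM in KO input, against 6179, 4370 and 5367 CPM in WT input. The sum of the 6 was 3398 to 4424 CPM in KO input and 4635 to 6520 CPM in WT input, most of it Hba-a1. The median log2 change of the 6 was 0.01. Ptprc, Adgre1, Csf1r and Cd68 had overlapping groups, with log2 changes of 0.08, 0.06, 0.03 and -0.01. The part of these cells in the levels of the gonadal genes was not tested.

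Of the 3 stromal markers 0 passed. Col1a1, a collagen chain, averaged 7700 ± 611 CPM in KO and 8021 ± 1190 CPM in WT (SD, n = 3), and Pdgfra 374 CPM in KO and 365 CPM in WT. Of the 4 mesonephric and surface-epithelial markers 0 passed, with sums of 261 to 279 CPM in KO input and 262 to 282 CPM in WT input. Upk3b, a uroplakin of mesothelial surfaces, averaged 169 CPM in KO and 168 CPM in WT, and the keratin gene Krt19 66.9 CPM in KO and 65.8 CPM in WT. The pair of endothelial markers summed to 139 to 150 CPM in KO input and 146 to 170 CPM in WT input (0 passed; 1 at an unadjusted p under 0.05, Cdh5, with means of 82.4 CPM in KO and 93.8 CPM in WT). Pecam1, an adhesion molecule of endothelium, averaged 61.8 CPM in KO and 65.2 CPM in WT. The 4 steroidogenic markers summed to 20.0 to 27.3 CPM in KO input and 23.0 to 24.3 CPM in WT input, and 0 passed. Hsd3b1, a steroid dehydrogenase, averaged 13.04 CPM in KO and 12.7 CPM in WT, and Star, the cholesterol carrier, 7.55 CPM in KO and 8.42 CPM in WT.

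The RIP table holds fold enrichments computed by the authors, 1 column per RIP library. What they are relative to, and where on a transcript a row lies, is not given in the sources used here, and no read depth stands behind them. The ratios of KO ovaries are what the antibody gave in tissue of the knockout. The 9 genes had 20 of the 14447 rows: 4 each for Fst and Amhr2, 2 each for Foxl2, Wnt4, Nr5a1, Wt1 and Gata4, and 1 each for Rspo1 and Nr0b1. None of these rows repeated the values of another gene. Lgr5 had none, whereas 2053 of the 3347 tested genes within 1.5-fold of its CPM, or 61.3%, had at least 1.

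None of the 20 rows passed the comparison of KO with WT (limma on log2(ratio + 1), smallest adjusted p = 0.499), and 0% of the 14365 tested rows did. At an unadjusted p under 0.05 there was 1 member row, higher in KO, where 2.88% of all tested rows were higher in KO and 8.85% differed in either direction. Of the 20 rows, 3 lay wholly higher in KO and 0 wholly lower, beside 6.77% and 8.39% of all rows. The estimate was higher in KO for 16 rows, or 80.0%, with a median log2 difference of 0.08, beside 50.5% of all rows and a median of 0.00. Rows of 1 gene share its transcript and are not independent.

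The row of Nr0b1 was the one with an unadjusted p under 0.05. Its fold enrichment was 5.18, 2.64 and 4.17 in KO RIP, against 2.34, 2.48 and 1.56 in WT RIP. KO replicate 2 stood just above the highest WT library, and the other two stood clear of it (KO over WT ratio of means 1.88, log2 difference 0.65, SE 0.24, 95% interval 0.10 to 1.20, adjusted p = 0.499, limma). The gene had 59 to 96 reads in any input library, the lowest count of the 10.

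Gata4 had rows of 2.46, 3.29 and 3.05 in KO RIP, against 2.71, 1.82 and 1.75 in WT RIP, and of 1.63, 1.79 and 1.87 in KO RIP, against 1.51, 1.54 and 1.55 in WT RIP. In the first, WT replicate 1 fell among the KO values. In the second the groups did not overlap. The log2 differences were 0.35 (SE 0.16, adjusted p = 0.578) and 0.12 (SE 0.078, adjusted p = 0.711).

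The higher row of Nr5a1 had 3.85, 2.72 and 3.13 in KO RIP, against 2.61, 2.59 and 2.50 in WT RIP, with no overlap but a narrow gap (log2 difference 0.24, SE 0.16, adjusted p = 0.719). Its lower row overlapped, at 1.43 to 1.91 in KO RIP and 1.27 to 1.69 in WT RIP. The higher row of Wt1 had 2.12, 3.63 and 3.01 in KO RIP, against 3.16, 1.83 and 2.16 in WT RIP. Both genotypes spread widely there (log2 difference 0.21, SE 0.20, adjusted p = 0.796), while its lower row was tight, at 1.35 to 1.43 in KO RIP and 1.28 to 1.46 in WT RIP.

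The higher row of Foxl2 had 1.92, 2.51 and 2.21 in KO RIP, against 2.05, 1.51 and 1.85 in WT RIP, with overlapping groups (log2 difference 0.20, SE 0.12, adjusted p = 0.685). Its other row averaged 1.30 ± 0.20 in KO and 1.29 ± 0.075 in WT (SD, n = 3), a log2 difference with a 95% interval of -0.19 to 0.19. The 4 rows of Amhr2 averaged 1.99 to 2.47 in KO and 1.78 to 2.51 in WT, with log2 differences of -0.02 to 0.11. All 4 overlapped.

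Fst held the highest mean ratio of the 20 rows. That row had 2.87, 2.28 and 3.32 in KO RIP, against 2.67, 3.01 and 4.46 in WT RIP, and the groups overlapped, with WT replicate 3 the highest value (log2 difference -0.19, SE 0.21, adjusted p = 0.833). The next 2 rows of Fst had the opposite sign, at 0.20 and 0.14, and its lowest row -0.01, so that its rows had no single direction. The rows of Wnt4 averaged 1.58 and 1.18 over the 6 libraries, at the 34.75 and 4.458 percentiles of all rows. The row of Rspo1 averaged 1.15. Rspo1 had 1.12, 1.22 and 0.932 in KO RIP, against 1.25, 1.29 and 1.08 in WT RIP (log2 difference -0.08, SE 0.076, adjusted p = 0.788).

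**Figure D4:**
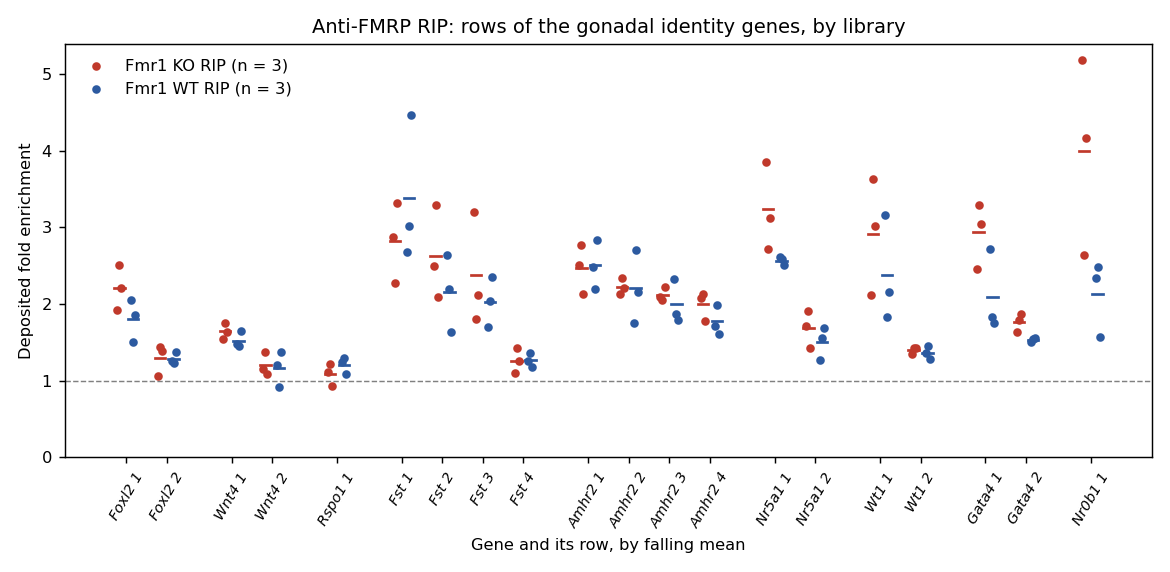
Deposited fold enrichment of the 20 rows of the gonadal genes in each RIP library, with Fmr1 KO points left and WT points right, a bar at each mean of 3 and a dashed line at a ratio of 1. Nr0b1 has the widest gap, a KO over WT ratio of means of 1.88, and Fst the highest mean of a row in WT, 3.38.

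By mean over the 6 libraries, the 20 rows stood between the 3.32 percentile of all rows for Rspo1 and the 86.3 for the highest row of Fst, with a median at the 66.2 percentile. In 18 of the 20 rows all 6 libraries exceeded a ratio of 1, as in 86.9% of all rows. The 2 exceptions were the row of Rspo1 and the lower row of Wnt4. For comparison, Fmr1 had 0.388, 0.439 and 0.439 in KO RIP, against 1.34, 1.43 and 1.40 in WT RIP.

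Single RIP libraries moved with these values. KO replicate 2 held the highest ratio in 10 of the 20 rows, beside 22.5% of all rows, and WT replicate 3 the lowest in 7, beside 16.9% of all rows. The top 1% of ratios began at 10.4, 25.1 and 17.1 in the KO libraries, in order of replicate, against 21.7, 10.3 and 11.6 for WT. Without KO replicate 2, 14 of the 20 rows were higher in KO (48.2% of all rows). Without WT replicate 1 there were also 14 (49.8% of all rows), and without WT replicate 3 there were 17 (51.3% of all rows). Leaving out 1 library at a time set the log2 difference of Nr0b1 between 0.48 and 0.87, and its adjusted p stayed at 0.484 or above.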

How the data were processed

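The authors deposited unscaled read counts for each gene. Per the file headers they come from featureCounts 1.6.3 over exons with the Ensembl release 104 annotation and no option for strand, pairs or multiple placements. GRCm38, MACS2 2.1.0, BWA 0.7.12, DESeq2 1.26.0 and FastQC are named, with no role, in the submitters' processing notes. Coordinates of genes are those of the count files, which follow a later build than the promoter windows. The RIP table holds a ratio (fold enrichment) per row and library, deposited by the authors.

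Counts were tested with edgeR 4.0.16 in R 4.3.3 (TMM, filterByExpr, robust quasi-likelihood, KO over WT) over all 23698 genes, and RIP ratios with limma 3.58.1 (trend) on log2(ratio + 1), median-centred, for rows with a mean of at least 1; this scale understates changes of low ratios. P-values were adjusted by Benjamini-Hochberg. For input, SE is the estimate over the root of F. For RIP, SE is the estimate over limma's moderated t. Both steps were tested on simulated data. Input replicates of 1 genotype differed by more than sampling noise (chi-square per degree of freedom 7.03 to 12.1), and the biological coefficient of variation was 12.1%.

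Members took their names from their Ensembl identifiers. RefSeq's table matched 0 identifiers; the gene of the same symbol lay on the same chromosome, with a span within 1.5-fold, for all 10 members and 50 of 55 list genes. All members are named; of each list, genes that passed and the 2 of highest CPM are named, and further genes named were chosen after their values were seen. Other listed genes enter only through counts, medians and sums. Members and lists were chosen with earlier results of these data known.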

Additional observations from a re-analysis of the deposited data

How the results depend on the processing

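In each of 12 alternatives 0 of the 10 genes were called in input (DESeq2 1.42.0, limma-voom, other size factors, filters, the replicate block and each library left out). Fmr1 passed in all 12, with log2 changes of -1.25 to -0.97. Signs of changes near 0 turned when 1 library was left out, with ranges of -0.168 to 0.0455 for Foxl2, -0.0136 to 0.118 for Gata4, -0.135 to 0.222 for Nr0b1 and -0.0206 to 0.101 for Nr5a1; the cause was not tested. The count of all input genes called, 10, was 113 with no filter on low counts, 41 with DESeq2, 20 with the replicate block and 5 to 37 with 1 library left out (37 without KO replicate 1, 5 without KO replicate 2, 28 without WT replicate 2). For the listed related genes and markers 9 alternatives were run; the count was 0 in 8 of them and 1 with the replicate block, Hba-a1 (log2 change -0.59, adjusted p = 0.000427). Replicate numbers gave no pairing: the correlation of deviations between KO and WT of 1 number was -0.071, -0.034 and -0.044 for input, and -0.60, -0.34 and -0.22 for RIP.

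No RIP row of the 10 genes was called under any of 13 alternatives, the replicate block included; no row of theirs had a mean of at least 4, so that filter gave no value. Over all rows the count was 1, the row of Fmr1, in place of 0, with no filter on low values. With rows averaged per gene, the difference became 0.0271 for Fst and 0.0362 for Amhr2, and Amhr2 ran from -0.0787 to 0.057 with 1 library left out. The count of rows higher in KO was 14 to 17 under 12 alternatives chosen after seeing the data. With TPM, which rests on the same exonic lengths, 8 of the 10 genes kept their rank by level. The 59 to 96 reads of Nr0b1 limit its input estimate.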
